A study of Mus musculus with 16 samples.

Results

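The miR-99b/let-7e/miR-125a cluster was described in mouse dendritic cells grown from bone marrow and treated with quercetin, lipopolysaccharide (LPS) or both. The members were every row of the count table named mmu-miR-99b-5p, mmu-miR-99b-3p, mmu-let-7e-5p, mmu-miR-125a-5p or mmu-miR-125a-3p (the species prefix mmu is dropped from most sentences), which gave 5 of 1372 mature miRNA names. Each member stood on 1 row of the table. The members were picked by name, with earlier results of these data known. The libraries came from 4 wild-type C57BL/6 mice, male where the label gives a sex, with 3 mice aged 8 weeks and 1 mouse aged 7 weeks. Marrow of each mouse was depleted of red cells by lysis before culture, so that every group shares this step. In the Q_LPS group the cells were given 25 µM of the flavonol quercetin (aglycone form) on culture days 5 and 7, and on day 8 LPS at 1 µg/mL for 6 h. The LPS group received the same LPS and no quercetin, the Q group received the same quercetin and no LPS, and the CTRL group received neither. Each group held 4 libraries, numbered by mouse, so that LPS 2 is the LPS library of mouse 2. The mouse aged 7 weeks was mouse 4. RNA was counted as reads per mature miRNA, and a level is given in CPM, the count scaled to the same library total everywhere, with TMM scaling between libraries.

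A miRNA guides Argonaute proteins to messenger RNAs, mainly through its seed, bases 2 to 8 from its 5′ end. The hairpins of this cluster lie next to each other in the genome and belong to 3 seed families that also have members in other clusters, such as miR-99a/let-7c/miR-125b-2 and miR-100/let-7a-2/miR-125b-1. In mouse macrophages let-7e is known to repress Tlr4, the receptor of LPS, and in human monocytes the cluster is known to dampen Toll-like receptor signalling. miR-125a is known in the mouse for its role in haematopoietic stem cells, and the miR-99/100 family for repression of Mtor.

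All 5 members matched a RefSeq entry on GRCm38.p6, and all lie on the plus strand of chromosome 17. Mir99b spans chr17:17830188-17830257, Mirlet7e spans chr17:17830352-17830444 and Mir125a spans chr17:17830812-17830879. The gap between Mir99b and Mirlet7e is 94 bases, that between Mirlet7e and Mir125a is 367 bases, and the 3 hairpins together cover 692 bases. They lie inside the gene Spaca6 (chr17:17826085-17843010) on the same strand. In the GENCODE annotation they are intronic in a protein-coding transcript of Spaca6, while Mir125a also overlaps an exon of a processed Spaca6 transcript (chr17:17830719-17830858). The 5 mature sequences are shown because they set which family each member belongs to. The sequence of the other arm of the let-7e hairpin, let-7e-3p, follows them since its counts are set against those of let-7e-5p. Capitals mark the seed.

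miR-99b-5p: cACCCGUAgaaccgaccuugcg
miR-99b-3p: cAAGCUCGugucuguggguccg
let-7e-5p: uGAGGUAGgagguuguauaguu
miR-125a-5p: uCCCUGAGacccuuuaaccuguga
miR-125a-3p: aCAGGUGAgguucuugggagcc
let-7e-3p: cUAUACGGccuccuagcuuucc

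The members occupy chr17:17830194-17830215 (miR-99b-5p), chr17:17830232-17830253 (miR-99b-3p), chr17:17830366-17830387 (let-7e-5p), chr17:17830817-17830840 (miR-125a-5p) and chr17:17830855-17830876 (miR-125a-3p). Their closest relatives by seed carry small differences, which bear on how reads can be assigned.

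let-7a-5p: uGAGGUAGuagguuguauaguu
miR-99a-5p: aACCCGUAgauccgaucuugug
miR-100-5p: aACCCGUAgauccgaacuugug
miR-125b-5p: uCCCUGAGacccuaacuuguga
miR-351-5p: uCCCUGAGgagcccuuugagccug

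With positions counted from 1 at the 5′ end of the member, let-7a-5p differs from let-7e-5p by G9U alone. miR-99a-5p differs from miR-99b-5p by C1A, A11U, C16U and C21U, and miR-100-5p differs from it by C1A, A11U, C16A and C21U. miR-125b-5p shares its first 13 bases with miR-125a-5p, and miR-351-5p shares its first 8 bases. The let-7e and miR-125a hairpins are shown since the results set their arms against each other, with the mature arms in capitals.

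Mirlet7e hairpin: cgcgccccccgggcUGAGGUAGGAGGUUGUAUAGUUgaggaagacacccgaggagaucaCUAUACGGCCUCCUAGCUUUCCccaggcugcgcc
Mir125a hairpin: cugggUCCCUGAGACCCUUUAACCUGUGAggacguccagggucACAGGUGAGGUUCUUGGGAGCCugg

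Libraries held 6454535 to 9035375 counts in Q_LPS, 10096639 to 13943904 in LPS, 7694885 to 8563815 in Q and 8660267 to 12529118 in CTRL. The members took 0.0216% ± 0.0048 of counts in Q_LPS, 0.0362% ± 0.0092 in LPS, 0.0235% ± 0.0034 in Q and 0.0320% ± 0.0097 in CTRL (SD, n = 4 each). The myeloid miRNAs miR-142a, miR-223 and miR-342-3p were counted in every group. Libraries that stand apart were found by correlating each library's deviations from its group means with those of the others. CTRL 3 correlated with LPS 4 (r = 0.67), Q 4 (r = 0.47) and Q_LPS 4 (r = 0.57) of another mouse, and negatively with LPS 3 (r = -0.18), Q 3 (r = -0.17) and Q_LPS 3 (r = -0.47) of its own mouse. CTRL 4 also correlated negatively with LPS 4 (r = -0.16), Q 4 (r = -0.15) and Q_LPS 4 (r = -0.32) of its own mouse. Its r with the libraries of mouse 3 was 0.36 for LPS 3, 0.02 for Q 3 and 0.54 for Q_LPS 3. Whether CTRL 3 and CTRL 4 were exchanged was not tested. The mouse block, the fits without 1 mouse and the direction within mice depend on these labels where CTRL libraries enter, while the unpaired group comparisons do not. The labels were kept, and results are also given without CTRL 3, LPS 4, Q 4 and Q_LPS 4. Below they are called the libraries that stand apart. Of these, LPS 4, Q 4 and Q_LPS 4 are of the mouse aged 7 weeks and correlated with each other (r = 0.47 to 0.65). All libraries are of bulk cultures, so fewer cells of a type and less RNA per cell cannot be told apart.

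The first question was what quercetin did to the cluster in LPS-treated cells. Both arms of miR-99b and both arms of miR-125a fell in Q_LPS relative to LPS, by 2.89-fold to 5.48-fold, while let-7e-5p from the hairpin between them did not pass. Thus 4 of 5 members were lower past an adjusted p of 0.05 in edgeR's quasi-likelihood test, and of all 568 miRNAs tested 14.3% were lower in this comparison. The median log2 fold change was -1.73 over the members and -0.13 over all miRNAs tested. Over all miRNAs 49 were higher and 81 lower, and 75 higher and 50 lower with scaling by library size alone, under which the 2 arms of miR-125a passed and those of miR-99b did not.

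**Figure D1:**
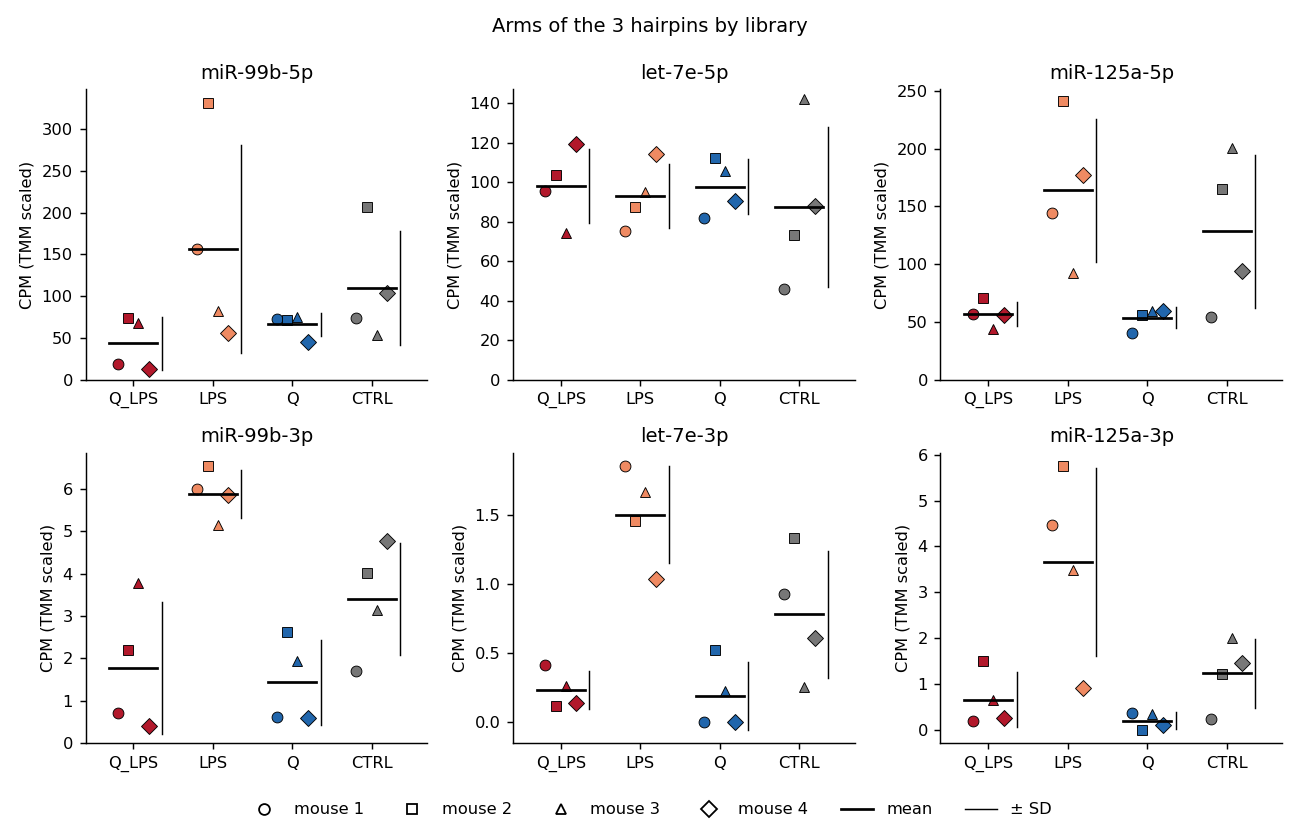
Level of each of the 5 members and of let-7e-3p in every library, in CPM with TMM scaling on the vertical axis and groups in the order Q_LPS, LPS, Q and CTRL on the horizontal axis. Each point is 1 library with its marker showing the mouse, the bar is the mean and the line is ± 1 SD (n = 4); for miR-125a-5p the Q_LPS points lie between 44.1 and 70.3 CPM and the LPS points between 92.5 and 241 CPM.

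mmu-miR-125a-5p, the more abundant arm of its hairpin, had 56.5, 70.3, 44.1 and 55.8 CPM in Q_LPS (mice 1 to 4), against 145, 241, 92.5 and 177 CPM in LPS. Every Q_LPS library lay below every LPS library, as did 13.4% of all miRNAs tested in this direction. The means were 56.7 ± 10.7 CPM in Q_LPS and 164 ± 62.3 CPM in LPS (SD over 4 libraries), and the log2 fold change was -1.53 ± 0.36 (SE, edgeR adjusted p = 0.00758). This call held when any 1 library was left out. It was lost when all libraries of mouse 2 (edgeR adjusted p = 0.0587) or of mouse 4 (edgeR adjusted p = 0.0511) were left out.

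mmu-miR-125a-3p, the scarce arm of the same hairpin, had 0.206, 1.51, 0.651 and 0.269 CPM in Q_LPS, against 4.47, 5.75, 3.49 and 0.920 CPM in LPS. These values rest on 22 counts in Q_LPS and 164 counts in LPS over 4 libraries each. It was lower in 4 of 4 mice, although the groups overlapped because LPS 4 lay below Q_LPS 2. The log2 fold change was -2.45 ± 0.71 (SE, edgeR adjusted p = 0.0226). The call was lost without LPS 1 (edgeR adjusted p = 0.0715), LPS 2 (0.0853), Q_LPS 1 (0.0763) or Q_LPS 4 (0.0758), where the log2 fold changes lay between -2.17 and -1.98. It was also lost without all libraries of mouse 1 (log2 fold change -1.89, edgeR adjusted p = 0.1246) or of mouse 3 (edgeR adjusted p = 0.0738).

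mmu-miR-99b-5p had 19.3, 73.6, 68.0 and 13.2 CPM in Q_LPS, against 156, 332, 82.2 and 55.7 CPM in LPS. It was lower in 4 of 4 mice, but Q_LPS 2 and Q_LPS 3 lay above LPS 4, so the groups overlapped. The means were 43.5 ± 31.7 CPM in Q_LPS and 156 ± 124 CPM in LPS, a log2 fold change of -1.85 ± 0.61 (SE, edgeR adjusted p = 0.0385). The call was kept without CTRL 2, CTRL 4, LPS 3, LPS 4, Q_LPS 2 or Q_LPS 3 and lost without any 1 of the other 10 libraries, with an edgeR adjusted p of up to 0.262. That highest value was reached without LPS 2, where the log2 fold change was -1.01. The call was also lost without mouse 1 (edgeR adjusted p = 0.208), mouse 2 (0.1104) or mouse 4 (0.0718) and in a fit to only the groups compared (0.0960). Without CTRL 3, LPS 4, Q 4 and Q_LPS 4 together it was -1.83 (edgeR adjusted p = 0.0449).

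mmu-miR-99b-3p had 0.721, 2.21, 3.78 and 0.404 CPM in Q_LPS, against 5.98, 6.53, 5.15 and 5.86 CPM in LPS. All Q_LPS libraries lay below all LPS libraries, as for 13.4% of all miRNAs tested in this direction. The values rest on 58 counts in Q_LPS and 254 counts in LPS. The log2 fold change was -1.73 ± 0.56 (SE, edgeR adjusted p = 0.0362). This call was kept without CTRL 4, Q 2 or Q_LPS 3 and lost without any 1 of the other 13 libraries, where the edgeR adjusted p reached 0.132. Here and for miR-99b-5p, CTRL and Q libraries are not in the groups compared and enter through the filter, scaling and spread of the shared fit. The call was lost without mouse 1 (edgeR adjusted p = 0.160), mouse 2 (0.1204) or mouse 4 (0.131) and in a fit to only the groups compared (0.0649). It was also lost without a filter on low counts (edgeR adjusted p = 0.0505) and without CTRL 3, LPS 4, Q 4 and Q_LPS 4 together (log2 fold change -1.41, edgeR adjusted p = 0.122).

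mmu-let-7e-5p, of the let-7 family known for repression of growth-promoting genes, had 95.4, 104, 74.5 and 119 CPM in Q_LPS, against 75.2, 87.2, 95.2 and 114 CPM in LPS. The groups lay over each other, with means of 98.2 ± 18.7 CPM in Q_LPS and 92.9 ± 16.4 CPM in LPS. The log2 fold change was 0.08, with a 95% interval from -0.52 to 0.68 (edgeR adjusted p = 0.888).

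In cells without LPS, quercetin lowered 1 of 5 members past the threshold, miR-125a-5p, where 8.98% of all miRNAs tested were lower. At an unadjusted edgeR p under 0.05 there were 3 of 5 members, beside 27.3% of all miRNAs tested in either direction. The median log2 fold change was -1.21 over the members and -0.05 over all miRNAs tested. miR-125a-5p had 40.6, 55.6, 59.0 and 59.4 CPM in Q, against 54.1, 165, 200 and 94.5 CPM in CTRL. It was lower in 4 of 4 mice, with CTRL 1 inside the range of the Q libraries. The means were 53.7 ± 8.87 CPM in Q and 129 ± 66.3 CPM in CTRL, a log2 fold change of -1.26 ± 0.36 (SE, edgeR adjusted p = 0.0242). The call was lost without CTRL 2 (edgeR adjusted p = 0.0737), CTRL 3 (0.0931), Q 1 (0.0725), Q 3 (0.0587) or Q 4 (0.0543). It was also lost without all libraries of mouse 2 (edgeR adjusted p = 0.134), mouse 3 (0.115) or mouse 4 (0.0802), and with limma-voom (adjusted p = 0.0521). Without CTRL 3, LPS 4, Q 4 and Q_LPS 4 together the log2 fold change was -1.02 (edgeR adjusted p = 0.156), and with upper quartile scaling it was -1.05 (edgeR adjusted p = 0.0586).

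The other 4 members did not pass in this comparison. miR-99b-3p had 0.615, 2.62, 1.93 and 0.600 CPM in Q, against 1.70, 4.00, 3.14 and 4.76 CPM in CTRL. It was lower in 4 of 4 mice with overlapping groups, and the log2 fold change was -1.21 ± 0.57 (SE, edgeR adjusted p = 0.178). miR-125a-3p had 0.369, 0, 0.340 and 0.120 CPM in Q, against 0.232, 1.23, 2.01 and 1.47 CPM in CTRL, which rest on 7 counts in Q and 48 counts in CTRL. Its log2 fold change was -2.50 ± 0.87 (SE, edgeR adjusted p = 0.0634), and DESeq2 gave -2.55 with an adjusted p of 0.0223. miR-99b-5p averaged 66.3 ± 13.98 CPM in Q and 110 ± 68.4 CPM in CTRL, with a log2 fold change of -0.73 ± 0.59 (SE, edgeR adjusted p = 0.464). let-7e-5p averaged 97.6 ± 13.95 CPM in Q and 87.3 ± 40.5 CPM in CTRL, with a 95% interval of the log2 fold change from -0.43 to 0.76.

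**Figure D2:**
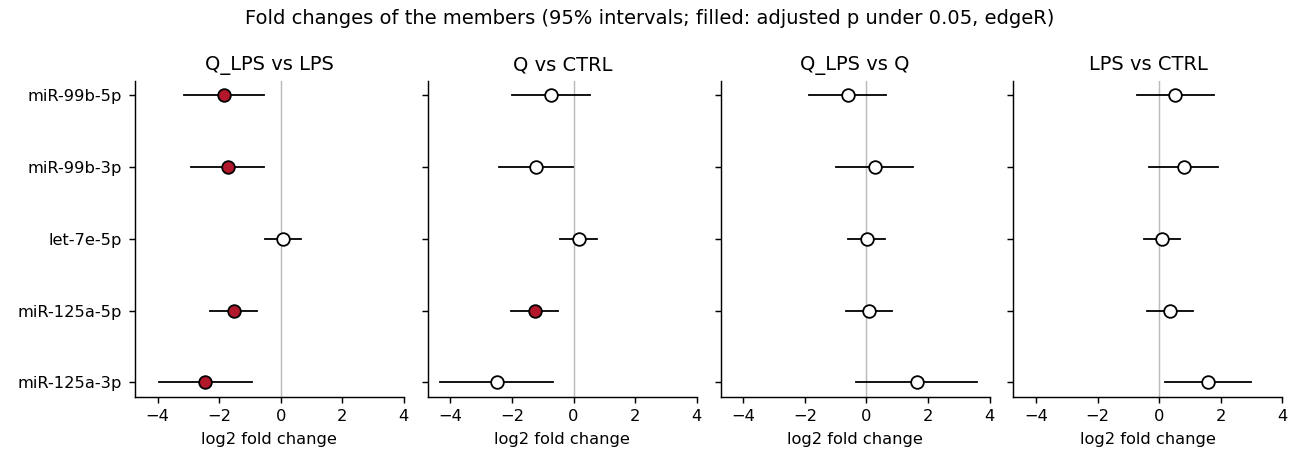
Log2 fold change of each member in 4 comparisons from the edgeR fit, on the horizontal axis, with lines for 95% intervals and filled points where the adjusted p is under 0.05. In Q_LPS vs LPS 4 members are filled and let-7e-5p is at 0.08; in Q vs CTRL miR-125a-5p alone is filled, and in both LPS comparisons none is.

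Averaged over cells with and without LPS, quercetin lowered 4 of 5 members, where 20.1% of all miRNAs tested were lower. The averaged log2 fold changes were -1.40 ± 0.25 for miR-125a-5p (edgeR adjusted p = 0.000566) and -2.48 ± 0.56 for miR-125a-3p (edgeR adjusted p = 0.00288). They were -1.47 ± 0.40 for miR-99b-3p (edgeR adjusted p = 0.00955) and -1.29 ± 0.42 for miR-99b-5p (edgeR adjusted p = 0.0262), each ± SE. The 2 arms of miR-125a passed whichever 1 library or 1 mouse was left out, with an edgeR adjusted p of at most 0.0103 for miR-125a-5p and 0.0192 for miR-125a-3p. miR-99b-3p did not pass without mouse 4 (edgeR adjusted p = 0.0737). miR-99b-5p did not pass without any 1 of CTRL 2, LPS 1, LPS 2, Q 1, Q 2, Q 3, Q 4, Q_LPS 1 and Q_LPS 4, with an edgeR adjusted p from 0.0507 to 0.109. Nor did it pass without mouse 1 (edgeR adjusted p = 0.114), mouse 2 (0.139) or mouse 4 (0.0592), or with scaling by library size alone (edgeR adjusted p = 0.0763).

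LPS changed no member past the threshold. In LPS vs CTRL 0 of 5 members passed in edgeR, DESeq2 or limma-voom, where 0.528% of all miRNAs passed in edgeR, and 1 member had an unadjusted p under 0.05, beside 4.58% of all miRNAs tested. That member was miR-125a-3p, at 3.66 ± 2.04 CPM in LPS and 1.24 ± 0.744 CPM in CTRL, with a log2 fold change of 1.59 ± 0.66 (SE, edgeR adjusted p = 0.944). miR-99b-3p averaged 5.88 ± 0.564 CPM in LPS and 3.40 ± 1.31 CPM in CTRL. All LPS libraries lay above all CTRL libraries for this arm, as for 2.11% of all miRNAs tested, and its log2 fold change was 0.79 with a 95% interval from -0.34 to 1.92. The intervals for miR-99b-5p (-0.74 to 1.76), let-7e-5p (-0.51 to 0.69) and miR-125a-5p (-0.40 to 1.10) also spanned 0.

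In cells with quercetin, Q_LPS vs Q, 0 of 5 members passed in edgeR, where 0.352% of all miRNAs did, and none had an unadjusted p under 0.05, beside 7.22% of all miRNAs tested. miR-125a-5p averaged 56.7 CPM in Q_LPS and 53.7 CPM in Q, with a 95% interval of the log2 fold change from -0.67 to 0.83. Averaged over both quercetin states, LPS gave 0 of 5 members, where 1.41% of all miRNAs passed, and a log2 fold change of 1.62 for miR-125a-3p (edgeR adjusted p = 0.414). The difference between the LPS responses with and without quercetin passed for none of the members and for 0% of all miRNAs, with log2 values from -1.12 for miR-99b-5p to 0.05 for miR-125a-3p. No member is therefore shown to respond to quercetin differently with LPS than without it.

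By mean level miR-99b-5p ran in the order LPS, CTRL, Q and Q_LPS, and no neighbours in that order differed by more than the larger SD of the pair. For miR-125a-5p the order was LPS, CTRL, Q_LPS and Q, and CTRL and Q_LPS were the neighbours that differed by more than that SD. For miR-99b-3p, in the same order, LPS and CTRL did so and CTRL and Q_LPS did so, while Q_LPS and Q did not. For miR-125a-3p the order was again LPS, CTRL, Q_LPS and Q, and LPS and CTRL alone did so. For let-7e-5p the order was Q_LPS, Q, LPS and CTRL, and no neighbours did.

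let-7e-5p was set beside the other members in further measures. The ratio of let-7e-5p to miR-125a-5p needs no scaling between libraries, since both are counted in the same library. On the log2 scale it was 0.76, 0.56, 0.75 and 1.09 in Q_LPS, against -0.94, -1.47, 0.04 and -0.63 in LPS, a difference of 1.54. It was 1.01, 1.02, 0.84 and 0.60 in Q, against -0.23, -1.18, -0.49 and -0.11 in CTRL, a difference of 1.37. Neither pair of groups overlapped, and all libraries with quercetin had more let-7e-5p than miR-125a-5p. The exact two-sided permutation p was 0.0286 in each, the smallest that 4 against 4 libraries allow, and 0.305 after adjustment over the 32 ratio and share comparisons made. The difference had the same sign in 4 of 4 mice, and an exact sign permutation within 4 mice cannot pass 0.05. The difference of Q_LPS and LPS had an exact permutation p of 0.0571 when any 1 Q_LPS library was left out. Of the 20 ratio comparisons only these 2 had an unadjusted p under 0.05. For the ratio of let-7e-5p to miR-99b-5p the differences were 1.96 in Q_LPS vs LPS (exact permutation p = 0.143) and 0.83 in Q vs CTRL (exact permutation p = 0.286).

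**Figure D3:**
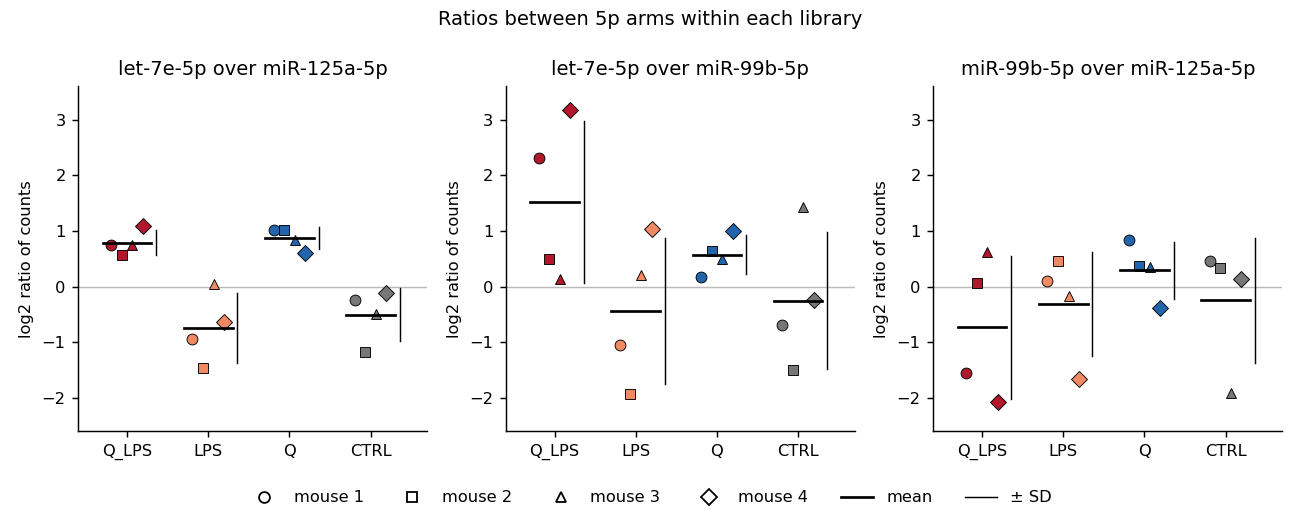
Log2 ratios between members within each library on the vertical axis, with groups in the order Q_LPS, LPS, Q and CTRL and 1 point per library. The ratio of let-7e-5p to miR-125a-5p is above 0 in all libraries with quercetin, from 0.56 to 1.09, and at most 0.04 in those without it; miR-99b-5p over miR-125a-5p is lowest in CTRL 3, LPS 4, Q 4 and Q_LPS 4 of their groups.

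The other arm of the let-7e hairpin, let-7e-3p, was too scarce for the filter on low counts. It had 4, 1, 2 and 1 counts in Q_LPS, against 22, 15, 21 and 9 counts in LPS. It had 0, 5, 2 and 0 counts in Q, against 12, 13, 2 and 7 counts in CTRL. The Q_LPS and LPS groups did not overlap in CPM, at 0.231 ± 0.137 in Q_LPS and 1.504 ± 0.352 in LPS (SD, n = 4), as for 7.29% of all 1372 miRNAs in this direction. In the edgeR fit without a filter its log2 fold change was -2.50 ± 0.69 in Q_LPS vs LPS (SE, edgeR adjusted p = 0.0245), where 4.45% of 1372 miRNAs were lower. In Q vs CTRL the same fit gave -1.95 ± 0.73 (SE, edgeR adjusted p = 0.144). The scarce arm of the hairpin thus fell in Q_LPS while let-7e-5p did not pass.

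A further measure was the correlation of log2 CPM over the 16 libraries. Treatment group and depth both enter these values, and libraries with quercetin were mostly shallower than those without it. Among the other 4 members the 6 pairwise values of r ran from 0.54 to 0.75, with a median of 0.72. let-7e-5p correlated with those 4 members at -0.38 to 0.21, with a median of -0.03. With the 8 other let-7 names tested it correlated at 0.44 to 0.85, with a median of 0.70, the highest being let-7d-5p (0.85) and let-7a-5p (0.80). After group means were subtracted, the 6 pairs among the other 4 members correlated at 0.20 to 0.64, with a median of 0.37, and the lowest was miR-99b-5p with miR-125a-5p. let-7e-5p then correlated with those 4 at -0.38 to 0.64, with a median of 0.14. Its r with miR-125a-5p, 0.64 within groups and 0.21 across all libraries, was the highest of any pair of members within groups. With the 8 other let-7 names let-7e-5p correlated more highly within groups, at 0.71 to 0.88.

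**Figure D4:**
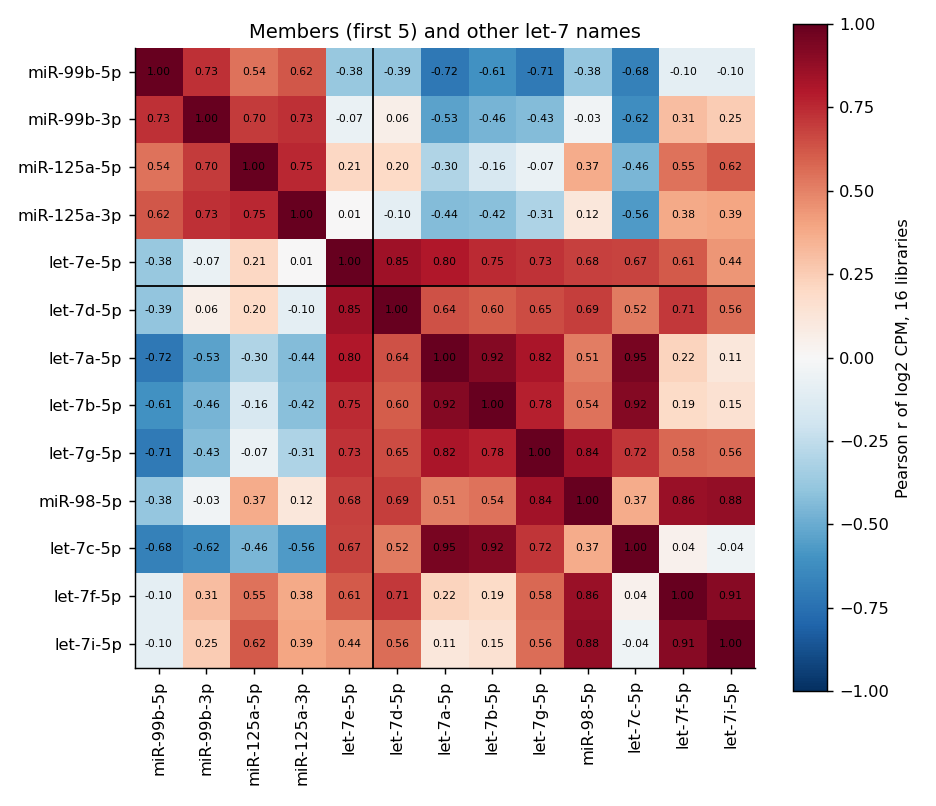
Pearson r of log2 CPM over 16 libraries between the 5 members and the 8 other let-7 names, as a colour grid with members and let-7 names along both axes. The block of miR-99b and miR-125a arms holds values from 0.54 to 0.75, and let-7e-5p reaches 0.44 to 0.85 with the let-7 names and -0.38 to 0.21 with the other members.

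The level of let-7e-5p was also set beside that of let-7a-5p, which differs from it by G9U alone and is far more abundant. let-7e-5p counts were 0.739% ± 0.147 of let-7a-5p counts in Q_LPS, 0.965% ± 0.0148 in LPS, 0.762% ± 0.0709 in Q and 0.919% ± 0.141 in CTRL (SD, n = 4). Over all libraries the share ran from 0.637% to 1.08%. How reads of such close relatives were assigned is not given in the sources used here, so the level of let-7e-5p is uncertain by any let-7a-5p reads counted under its name. The part of this in the values of let-7e-5p was not tested.

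Within each group miR-99b-5p was lowest in CTRL 3 or in a library of mouse 4, the mouse aged 7 weeks. Age and animal cannot be told apart with 1 mouse of that age. The lowest library of each group was Q_LPS 4 at 13.2 CPM, LPS 4 at 55.7 CPM, Q 4 at 45.4 CPM and CTRL 3 at 53.0 CPM. The log2 ratio of miR-99b-5p to miR-125a-5p was also lowest in these, at -2.08 in Q_LPS 4, -1.66 in LPS 4, -0.39 in Q 4 and -1.92 in CTRL 3. Q_LPS 1 was low as well, at -1.55, and the other 11 libraries lay between -0.17 and 0.84. The group differences of this ratio were -0.42 in Q_LPS vs LPS (exact permutation p = 0.714) and 0.54 in Q vs CTRL (exact permutation p = 0.543). Between the arms of a hairpin, miR-99b-5p over miR-99b-3p differed by 0.26 in Q_LPS vs LPS (exact permutation p = 0.600) and by 0.82 in Q vs CTRL (exact permutation p = 0.229). For miR-125a-5p over miR-125a-3p the differences were 1.00 in Q_LPS vs LPS (exact permutation p = 0.229) and 1.25 in Q vs CTRL (exact permutation p = 0.200).

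The relatives that share a seed with the members did not all follow them. In the miR-125 family miR-125b-5p averaged 93.4 ± 32.0 CPM in Q_LPS and 97.7 ± 34.3 CPM in LPS, with a 95% interval of the log2 fold change from -0.70 to 0.57. It averaged 98.9 ± 13.9 CPM in Q and 106 ± 34.4 CPM in CTRL, with an interval from -0.74 to 0.53. miR-125a-5p as a share of miR-125a-5p plus miR-125b-5p counts was 29.2%, 50.7%, 38.5% and 36.3% in Q_LPS, against 60.3%, 62.6%, 59.9% and 66.5% in LPS. It was 25.6%, 39.3%, 37.1% and 39.3% in Q, against 41.8%, 53.8%, 60.6% and 54.7% in CTRL. The groups did not overlap in either comparison, with differences of -23.6 and -17.4 percentage points and an exact permutation p of 0.0286 in each. That is the smallest p that 4 against 4 libraries allow. This share leaves miR-351-5p out of the family and lies outside the 32 ratio and share comparisons, so its p was not adjusted. The difference had the same sign in 4 of 4 mice, and an exact sign permutation within 4 mice cannot pass 0.05.

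The most abundant miRNA with this seed, miR-351-5p, fell in Q_LPS, at 335 ± 161 CPM in Q_LPS and 1239 ± 644 CPM in LPS (log2 fold change -1.89 ± 0.46, edgeR adjusted p = 0.00842). With it in the family, the family sum averaged 485 ± 144 CPM in Q_LPS and 1501 ± 712 CPM in LPS, and 690 ± 228 CPM in Q and 1403 ± 495 CPM in CTRL. miR-125a-5p then held 12.8% of the family in Q_LPS and 12.1% in LPS (exact permutation p = 0.83). It held 8.63% ± 3.46 in Q and 9.83% ± 6.68 in CTRL (exact permutation p = 0.80), which differ by less than either SD.

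**Figure D5:**
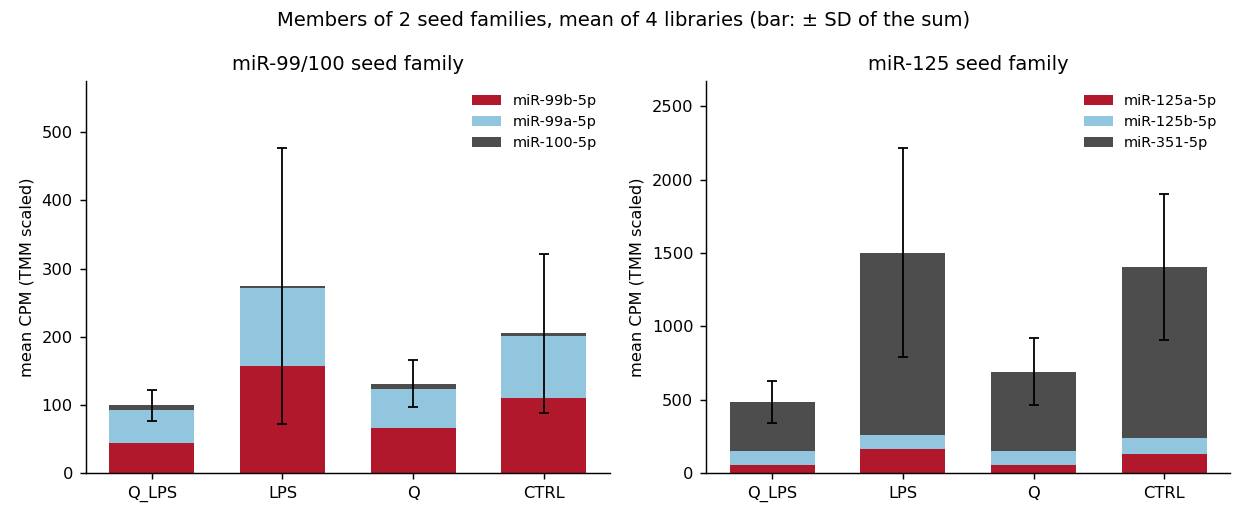
Mean CPM of the members of the miR-99/100 and miR-125 seed families, stacked by miRNA on the vertical axis, in Q_LPS, LPS, Q and CTRL, with lines for ± 1 SD of the family sum (n = 4). The miR-125 sum is 485 CPM in Q_LPS and 1501 CPM in LPS, most of it miR-351-5p, and the miR-99/100 sum is 99.2 CPM in Q_LPS and 274 CPM in LPS.

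In the miR-99/100 family the sum averaged 99.2 ± 22.7 CPM in Q_LPS and 274 ± 202 CPM in LPS, and 131 ± 34.7 CPM in Q and 205 ± 116 CPM in CTRL. miR-100-5p rose in Q_LPS, at 7.09 ± 3.52 CPM in Q_LPS and 2.73 ± 1.18 CPM in LPS (log2 fold change 1.37 ± 0.44, edgeR adjusted p = 0.0356). miR-99a-5p averaged 48.6 ± 26.2 CPM in Q_LPS and 115 ± 78.4 CPM in LPS, with a log2 fold change of -1.24 ± 0.51 (SE, edgeR adjusted p = 0.0854). Thus miR-100-5p, the scarcest of the family, had a fold change opposite in sign to those of miR-99b-5p and miR-99a-5p. With quercetin averaged over LPS states, miR-99b-5p and miR-99a-5p passed as lower and miR-100-5p as higher. The family median of the log2 fold change was then -0.97. miR-99b-5p held 42.3% of the family's counts in Q_LPS and 55.7% in LPS (exact permutation p = 0.429). It held 51.6% in Q and 52.8% in CTRL (exact permutation p = 0.857).

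In the let-7 family 9 of 10 names were tested and 1 was higher in each quercetin comparison, let-7c-5p, a share close to that over all miRNAs tested (8.63% higher in Q_LPS vs LPS and 6.87% in Q vs CTRL). It averaged 7565 ± 2476 CPM in Q_LPS and 3813 ± 807 CPM in LPS (log2 fold change 0.99 ± 0.27, edgeR adjusted p = 0.0159). It averaged 7263 ± 983 CPM in Q and 3709 ± 1271 CPM in CTRL (log2 fold change 0.97 ± 0.27, edgeR adjusted p = 0.0220). let-7e-5p held 0.118% ± 0.0169 of the family's counts in Q_LPS and 0.121% ± 0.0116 in LPS (exact permutation p = 0.771). It held 0.141% ± 0.0089 in Q and 0.105% ± 0.0147 in CTRL (exact permutation p = 0.0286, adjusted 0.305).

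A list made for the paralogous clusters held 12 mature names, of which 10 were tested. It had 3 names higher and 0 lower in Q_LPS vs LPS, where 8.63% of all miRNAs were higher and 14.3% lower. Those were let-7c-5p, miR-100-5p and let-7c-2-3p. The median log2 fold change of the 10 was 0.22, beside -0.13 over all miRNAs. In Q vs CTRL 1 was higher and 1 lower, let-7c-5p and let-7c-1-3p, near the shares over all miRNAs (6.87% higher and 8.98% lower). The median there was -0.12, beside -0.05. let-7c-5p, let-7a-5p and miR-125b-5p can each arise from more than 1 hairpin, so their levels cannot be given to 1 of these clusters. let-7c-2-3p held the same counts as let-7a-1-3p in every library, so its values cannot be given to either name. The hairpin Mirlet7c-2 lies on chromosome 15 and Mirlet7a-1 on chromosome 13, while Mir99a is on chromosome 16 and Mir100 on chromosome 9. Thus 1 of the 3 names called higher is of neither paralogous cluster, and it also enters the median of 0.22.

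Among 18 tested miRNAs of a list of LPS-responsive miRNAs of myeloid cells, 11 were lower in Q_LPS vs LPS and 10 in Q vs CTRL, with none higher. Over all miRNAs tested 14.3% and 8.98% were lower. The median log2 fold changes were -1.27 and -1.33, beside -0.13 and -0.05 over all miRNAs tested. Among its 4 most abundant names, miR-222-3p was lower in both, by log2 fold changes of -1.30 (edgeR adjusted p = 0.00269) and -1.05 (edgeR adjusted p = 0.0140). miR-146b-5p was lower in Q_LPS vs LPS (-1.68, edgeR adjusted p = 0.0432), while miR-155-5p (-0.29) and miR-21a-5p (0.22) did not pass. The fold changes of miR-125a-5p in these comparisons, -1.53 and -1.26, were of the size of the list's medians. With LPS itself 2 of the 18 were higher in LPS vs CTRL and 2 in Q_LPS vs Q. In these comparisons 0.528% and 0.352% of all miRNAs passed, so most of the list was not shown to respond to LPS here.

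The 5 miRNAs outside the cluster with the most similar pattern were miR-423-5p (r = 0.83), miR-18a-3p (0.83), miR-342-3p (0.83), miR-298-5p (0.82) and miR-212-3p (0.81). Likeness is the r of log2 CPM over the 16 libraries to the mean of the 5 members, among 309 other miRNAs of at least 10 CPM with a median r of 0.11. The members, which enter that mean, reached 0.91 (miR-125a-3p), 0.90 (miR-99b-3p), 0.86 (miR-125a-5p), 0.80 (miR-99b-5p) and 0.01 (let-7e-5p). miR-342-3p had a log2 fold change of -1.82 in Q_LPS vs LPS (edgeR adjusted p = 4.56e-05) and -0.80 in Q vs CTRL (edgeR adjusted p = 0.0259). miR-423-5p had -1.09 in Q_LPS vs LPS (edgeR adjusted p = 0.0320) and -0.80 in Q vs CTRL (edgeR adjusted p = 0.1251).

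Of the markers of other cells, erythroid ones rose in both quercetin comparisons, and stromal and endothelial ones in Q_LPS vs LPS. Over all miRNAs tested 8.63% were higher and 14.3% lower in Q_LPS vs LPS, and 6.87% were higher and 8.98% lower in Q vs CTRL. Names with the same counts in every library were counted once. These were miR-486a-5p and miR-486b-5p among the erythroid miRNAs, and among the stromal ones miR-199b-3p, whose counts are those of miR-199a-3p. Of 5 erythroid miRNAs 4 were higher in each quercetin comparison and none was at 0 in a whole group. Their summed level was 1268 to 3042 CPM in Q_LPS against 443 to 1409 CPM in LPS, and 2585 to 6650 CPM in Q against 398 to 894 CPM in CTRL. miR-451a had log2 fold changes of 3.03 in Q_LPS vs LPS and 2.83 in Q vs CTRL. Of 9 tested stromal and endothelial miRNAs 4 were higher in Q_LPS vs LPS and 1 in Q vs CTRL, the last near the share over all miRNAs. Their sum was 451 to 4961 CPM in Q_LPS against 181 to 444 CPM in LPS, where miR-143-5p was at 0, and 470.1 to 1650.1 CPM in Q against 219 to 691 CPM in CTRL. Of 7 epithelial miRNAs 1 was higher in Q_LPS vs LPS and 0 in Q vs CTRL, near the shares over all miRNAs. Their sums were 273 to 628 CPM in Q_LPS, 241 to 300 CPM in LPS, 224 to 328 CPM in Q and 204 to 305 CPM in CTRL. Of 5 lymphocyte miRNAs 0 passed in Q_LPS vs LPS and 1 was higher in Q vs CTRL. Their sums were 92162 to 106003 CPM in Q_LPS, 91816 to 124662 CPM in LPS, 101065 to 148060 CPM in Q and 74361 to 114482 CPM in CTRL, most of it miR-181a-5p, which myeloid cells also make. Of 5 myeloid miRNAs 1 was lower in Q_LPS vs LPS, near the share over all miRNAs, and 2 were lower in Q vs CTRL. Their sums were 22800 to 34015 CPM in Q_LPS, 26974 to 42421 CPM in LPS, 18839 to 31138 CPM in Q and 21880 to 40254 CPM in CTRL. The part of these cells in the fold changes of the members was not tested.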

How the data were processed

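Small RNA libraries were prepared with a TruSeq Small RNA kit from RNA extracted with miRNeasy, per the labels' protocols. Raw counts of reads per mature miRNA in 16 libraries make up the deposited table. Cutadapt and the build mm9 are named in the submitters' processing notes, and the aligner and the rule for counting are not given in the sources used here. Of 1381 rows, 1 with text among its counts and 4 whose counts look exchanged between neighbours were left out, and 4 names on 2 rows each were summed, none of them a member. This left 1372 names. Of those tested, 36 names, none of them a member, hold the same counts as another name in every library; they were kept in the fits, where they enter at most 0.896% of a library's counts again, and counted once in the marker lists. No coordinate was taken from mm9, and the RefSeq sequences and coordinates are those of GRCm38.p6. Depth was 6454535 to 13943904 counts per library.

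The test was edgeR's quasi-likelihood test (edgeR 4.0.16, R 4.3.3) in 1 fit to the 16 libraries and 4 groups, scaled by TMM. A filter on low counts (filterByExpr) left 568 miRNAs. P-values were adjusted by Benjamini-Hochberg over all miRNAs of a comparison, with a threshold of 0.05. Each SE is the log2 fold change divided by the square root of F. Ratios used a pseudocount of 0.5, and ratios and shares were compared by exact two-sided permutation of libraries. Correlations used log2 CPM with a prior count of 2. DESeq2 1.42.0, limma 3.58.1 (voom), other scalings, no filter, a mouse block, fits to the groups compared, and fits without each library, each mouse or the libraries that stand apart were the alternatives. On counts simulated for Q vs CTRL over 568 miRNAs, the test recovered 54% of 100 miRNAs changed by a log2 size of 1 and 85% of 100 changed by 2. Tables and figures were made with Python 3.11.15, pandas 2.3.3, numpy 2.4.6, scipy 1.17.1 and matplotlib 3.10.9.

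Libraries with the same number were taken as the same animal, because the design text speaks of 4 mice and sample titles are numbered by mouse. Deviations from group means correlated at a mean r of 0.14 over 24 pairs of libraries of the same mouse and -0.04 over 72 pairs of different mice. P-values measure the spread between cultures of these mice. The members, the lists and the tests were chosen with earlier results of these data known. Named were the 5 members, let-7e-3p, members of the seed-family and paralogous-cluster lists, up to 4 members by mean CPM of every other list, and the 5 most similar miRNAs of at least 10 CPM.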

Additional observations from a re-analysis of the deposited data

Results flagged for a closer look

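The level of miR-99b-5p in Q 4, 45.4 CPM, lay far below the other 3 Q libraries, which held 71.8 to 74.9 CPM. The gap was 0.895 of the range of the group. The log2 ratio of miR-99b-5p to miR-125a-5p in CTRL 3, -1.92, lay far below the other 3 CTRL libraries, at 0.14 to 0.46, and the gap was 0.865 of the range. Chance alone sets apart about 1 in 20 groups looked at in this way, and 2 of 52 were. Both libraries are among CTRL 3, LPS 4, Q 4 and Q_LPS 4, which correlated with each other across all miRNAs. Q 4 is of the mouse aged 7 weeks.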

How the results depend on the processing

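The count of members past the threshold in Q vs CTRL was 1, and became 0 with upper quartile scaling, limma-voom or without CTRL 3, LPS 4, Q 4 and Q_LPS 4, and 2 with DESeq2. In Q_LPS vs LPS it was 4 and became 2 with library size scaling and 2 in a fit to only the groups compared. Leaving out a library or a mouse gave 0 to 2 members in Q vs CTRL, 1 to 4 in Q_LPS vs LPS and 2 to 4 for quercetin averaged. The cause was not tested in any of these. Averaged comparisons and the interaction have no fit to fewer groups. Over all miRNAs, higher and lower calls in Q_LPS vs LPS were 49 and 81 with TMM, 75 and 50 with library size, 71 and 54 with upper quartile and 67 and 66 with RLE scaling. In Q vs CTRL they were 39 and 51 with TMM and 48 and 29 with upper quartile scaling. The median of all miRNAs in Q_LPS vs LPS was -0.13 with TMM and 0.15 with library size, and in Q vs CTRL -0.05 with TMM and 0.15 with upper quartile scaling. With TMM and 1 CTRL or Q library left out, the median in Q_LPS vs LPS lay between 0.0052 and 0.084.

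With a replicate block for the mouse the counts of members past the threshold were 1 in Q vs CTRL and 4 in Q_LPS vs LPS, and the block changed no call of a member. For the ratios and shares the paired sign permutation within 4 mice cannot pass 0.05, so 0 of 20 ratio comparisons (2 unpaired) and 0 of 12 share comparisons (1 unpaired) had a p under 0.05. Leaving out 1 library gave 1 to 3 such ratios and 0 to 2 such shares. Without let-7k, miR-98-5p and miR-351-5p in the families 3 shares had one: the share of miR-125a-5p differed by -17.4 percentage points in Q vs CTRL and -23.6 in Q_LPS vs LPS.

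Other signs turned for differences that passed no threshold. For let-7e-5p (log2) these were -0.037 in LPS vs CTRL, -0.023 for LPS averaged, -0.0092 in Q_LPS vs Q and 0.028 for the interaction with library size scaling, -0.0018 in Q_LPS vs Q with limma-voom and -0.14 without the libraries that stand apart, and for the interaction 0.014 with RLE, 0.013 with DESeq2 and 0.011 with no filter. LPS averaged for miR-99b-5p was 0.047 without those libraries, and the interaction of miR-125a-3p was -0.29 with limma-voom and -0.51 without them. With a pseudocount of 5, miR-99b-5p over miR-99b-3p was -0.21 in Q_LPS vs LPS and miR-125a-5p over miR-125a-3p was -0.093 in Q vs CTRL. With 1 library or mouse left out, log2 values ran for let-7e-5p from -0.14 to 0.37 in LPS vs CTRL, -0.014 to 0.52 in Q vs CTRL, -0.13 to 0.25 in Q_LPS vs Q, -0.077 to 0.30 for LPS averaged and -0.24 to 0.27 for the interaction. They ran for miR-99b-5p from -0.22 to 0.96 in LPS vs CTRL and -0.36 to 0.23 for LPS averaged, for miR-99b-3p from -0.31 to 0.88 in Q_LPS vs Q and -1.11 to 0.093 for the interaction, for miR-125a-5p from -0.0060 to 0.31 in Q_LPS vs Q and -0.46 to 0.14 for the interaction, and for miR-125a-3p from -0.91 to 1.33 for the interaction. Ratios ran from -0.12 to 0.69 for miR-99b-5p over miR-99b-3p in Q_LPS vs LPS, from -0.67 to 0.38 for let-7e-5p over miR-99b-5p in LPS vs CTRL, and for miR-99b-5p over miR-125a-5p from -0.62 to 0.38 in LPS vs CTRL, -0.015 to 0.78 in Q vs CTRL and -0.87 to 0.030 in Q_LPS vs LPS. Shares, in percentage points, ran for miR-99b-5p from -0.681 to 7.63 in LPS vs CTRL and -4.69 to 3.62 in Q vs CTRL, for let-7e-5p from -0.010 to 0.0033 in Q_LPS vs LPS, and for miR-125a-5p from -0.582 to 5.53 in LPS vs CTRL, -2.96 to 2.06 in Q vs CTRL and -1.45 to 3.51 in Q_LPS vs LPS. The scarce arms rest on 7 to 254 counts a group, which limits their precision, and the intervals cover neither read assignment nor the scaling.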
